A study of Rattus norvegicus with 32 samples.

Results

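The 6 arrays labelled olfactory bulbs were compared with the 18 arrays labelled pituitary gland, hippocampus or striatum. They were chosen by their titles alone, out of 32 arrays in the series, and no measured value entered the choice. Each label held 2 arrays of Csf1r-/- (KO) rats, 2 of Csf1r+/- (HET) rats and 2 of Csf1r+/+ (WT) rats. The KO and HET animals carry an EGFP and neomycin resistance insertion in *Csf1r*, the receptor for the macrophage growth factors CSF1 and IL34, made in Dark Agouti embryonic stem cells, and the colony goes back to 1 targeted clone. All animals behind these 24 arrays were adult females on a mixed DA/SD background, and the methods name 2 rats per genotype whose tissue was taken without perfusion and snap frozen. Arrays of different labels can therefore come from the same rat, while the labels do not tie replicate numbers to rats, so the p-values below treat the arrays as independent and cover only the spread between them. The description field of the arrays labelled olfactory bulbs and pituitary gland names striatum, in conflict with their titles, and each array keeps its title here.

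The pituitary gland hangs below the hypothalamus and is not part of the olfactory system. Its anterior lobe is an epithelial gland whose somatotropes, lactotropes, corticotropes, thyrotropes and gonadotropes each secrete a named hormone under the control of releasing factors from the hypothalamus, and its posterior lobe holds axon endings and the glia around them. The olfactory bulb is forebrain tissue, with mitral and tufted neurons, many interneurons that use GABA, and myelinated fibres.

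The markers went against the label. The mean log2 intensity over 7 anterior pituitary hormone genes had a low of 10.45, a median of 10.72 and a high of 10.91 on the 6 arrays labelled olfactory bulbs, against 3.47, 4.02 and 5.24 on the 18 other arrays. Over 9 genes of olfactory bulb neurons the mean lay between 5.12 and 5.60 on the arrays labelled olfactory bulbs, and between 9.26 and 9.47 on those labelled pituitary gland. On the hormone genes the 6 arrays stood apart from every other array, and on the olfactory bulb genes the arrays labelled pituitary gland did. The 18 arrays of the comparison therefore hold 3 labelled regions with neural transcripts, and the text calls each array by its label.

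**Figure D1:**
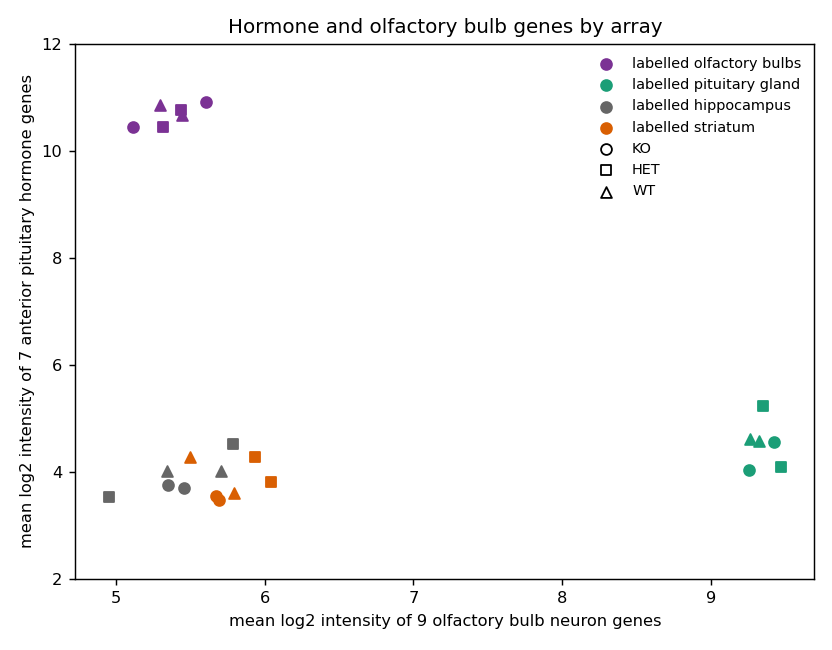
Mean log2 intensity of 7 anterior pituitary hormone genes (vertical axis) against that of 9 olfactory bulb neuron genes (horizontal axis), 1 symbol per array, with colours for the label and shapes for the genotype. The 6 arrays labelled olfactory bulbs lie above 10 on the vertical axis and below 6 on the horizontal one, and the 6 labelled pituitary gland are the only ones above 9 on the horizontal axis.

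*Csf1r*, the targeted gene, had log2 intensities of 3.43 and 3.07 on the KO arrays labelled olfactory bulbs, 7.79 and 7.59 on the HET arrays and 7.63 and 7.74 on the WT arrays. Both KO arrays lay below the 4 HET and WT arrays for *Csf1r* (KO minus WT -4.43, SE 0.20, adjusted p = 4.48e-09 from limma), as the KO label says. HET minus WT was 0.00 on the log2 scale, so the level of the targeted gene did not set the HET arrays apart from the WT arrays and does not check the HET label. The 6 arrays were alike. Over 10663 tested genes, Pearson's r between 2 of them ranged from 0.957 to 0.986 (15 pairs, across genes, which are not independent replicates), while r between one of them and an array of another label ranged from 0.717 to 0.800 (108 pairs). Pairs of different labels among the other 18 arrays reached 0.870 to 0.955. The SD of the log2 differences had a median of 0.463 within the 6 arrays and 1.40 between them and the other labels. The median intensity per array was 15.1 to 16.6 on the arrays labelled olfactory bulbs and 16.4 to 17.5 on pituitary gland. It was 18.9 to 21.0 on hippocampus and 20.2 to 21.7 on striatum, so scale and label cannot be told apart there. Of the other 18 arrays, 8 carried transcripts of a further tissue in earlier results. The mean of choroid plexus genes was 9.61 and 9.53 on KO 2 and WT 2 of hippocampus and at most 5.38 on the remaining 16, that of olfactory mucosa genes was 7.78, 7.15 and 6.08 on KO 2, HET 1 and HET 2 of pituitary gland, against 5.80, 5.57 and 4.54 on WT 1, WT 2 and KO 1 of that label and at most 4.39 on hippocampus and striatum, and that of excitatory synapse genes was 8.96 to 9.36 on KO 1, HET 2 and WT 2 of striatum, against 8.18 to 8.38 on the other 3 arrays of that label. Without these 8 arrays 4692 genes were higher and 2620 lower in the comparison that follows.

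limma with genotype as a block found 4828 genes higher on the 6 arrays (45.3% of those tested) and 2638 lower (24.7%) at an adjusted p under 0.05, 7466 in all (70%). The median log2 difference over all genes was 0.24, and it was -0.00 when each array was centred on its own median. The share of higher genes among those called was 64.7% as deposited and 50.8% after that centring. All 6 arrays lay above all 18 for 2383 genes (22.3%) and below all 18 for 1167 (10.9%). Differences of at least 2-fold were called for 1980 genes upwards and 1254 downwards, and of at least 32-fold for 29 and 27. Against the arrays labelled pituitary gland alone 40.4% of the genes were higher and 68.4% differed either way. The shares were 51.6% and 78.9% against hippocampus, and 50.3% and 78.2% against striatum. These shares depend on scale too. As deposited, 4306, 5498 and 5361 genes were higher than on pituitary gland, hippocampus and striatum. After repeated quantile normalization the counts were 4135, 4387 and 4408. Higher than each of the 3 other labels taken separately were 3599 genes (33.8%), and lower than each were 1818 (17%). Tissue RNA in bulk cannot tell fewer cells of a type from less RNA per cell, and this holds for each difference below.

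The hormones of the anterior lobe were all higher. Of the 7 hormone genes, 7 rose past the test, beside 45.3% of all genes. For all 7 the 6 arrays lay above all 18, beside 22.3% of all genes. Their median log2 difference was 7.56, beside 0.24 over all genes tested. *Cga* encodes the alpha subunit shared by thyroid-stimulating, luteinizing and follicle-stimulating hormone. Its log2 intensity was 12.22 at the lowest, 12.28 at the median and 12.42 at the highest on the arrays labelled olfactory bulbs, against 3.23, 4.04 and 6.26 on the others, a difference of 8.03 (SE 0.31, adjusted p = 3.98e-16 from limma). *Tshb*, the thyrotropin beta subunit of thyrotropes, had 9.997, 10.23 and 10.59 against 1.503, 2.23 and 2.88 (difference 8.14, SE 0.18, adjusted p = 1.4e-20), the largest positive difference of all genes tested. The other arrays lay wholly below an intensity of 20, so the background of the array limits the size of this difference. This floor, 4.32 on the log2 scale, decided which genes were tested. A gene had to reach it on at least 1 array. One at background on the 18 arrays was therefore tested only if it reached the floor on the 6, and the reverse. Counts of list members that rose or fell are set in part by this filter.

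*Pomc*, the precursor of corticotropin in corticotropes and of melanocyte-stimulating hormone in the intermediate lobe, had 11.10, 11.37 and 11.52 on the 6 arrays against 2.90, 3.79 and 4.50 on the 18 (difference 7.61, SE 0.16, adjusted p = 8.04e-21). Growth hormone, *Gh1*, the product of somatotropes, had 12.68, 12.77 and 12.91 against 4.18, 5.06 and 7.37 (difference 7.56, SE 0.36, adjusted p = 1.88e-14). The 6 arrays lay within less than 0.5 of each other for both genes. The highest value of any probe set on these 6 arrays was 12.68 to 12.91, which is also the range of *Gh1*. *Cga* and *Prl* lay within 1 log2 unit of it, so the upper end of the scale may limit differences of these 3 genes, and their small spread among the 6 arrays.

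Prolactin, *Prl*, the product of lactotropes, had signal under the other labels too. It had 12.07, 12.16 and 12.18 on the arrays labelled olfactory bulbs, against 5.96 to 9.64 on those labelled pituitary gland, 3.76 to 7.48 on hippocampus and 3.78 to 6.77 on striatum. Its difference was 6.22 against all 18 (SE 0.71, adjusted p = 6.17e-08), 4.43 against the arrays labelled pituitary gland, 7.10 against hippocampus and 7.14 against striatum. The arrays did not overlap with any of the 3 labels. *Gh1* also had its highest outside values under the pituitary gland label, with 5.23 to 7.37 on the arrays labelled pituitary gland, 4.18 to 5.90 on hippocampus and 4.39 to 5.74 on striatum, and the source of this signal on the 18 arrays was not tested.

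The 2 beta subunits of the gonadotropes varied among the 6 arrays. *Fshb*, of follicle-stimulating hormone, had 7.54, 9.39 and 10.11 against 2.16, 2.95 and 3.31 (difference 6.18, SE 0.27, adjusted p = 4.72e-15). *Lhb*, of luteinizing hormone, had 5.95, 7.05 and 7.48 against 3.99, 4.37 and 5.94 (difference 2.42, SE 0.23, adjusted p = 2.96e-09). The lowest of the 6 values of *Lhb* only just cleared the highest of the 18. The estrous stage of the rats is not given in the sources used here.

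**Figure D2:**
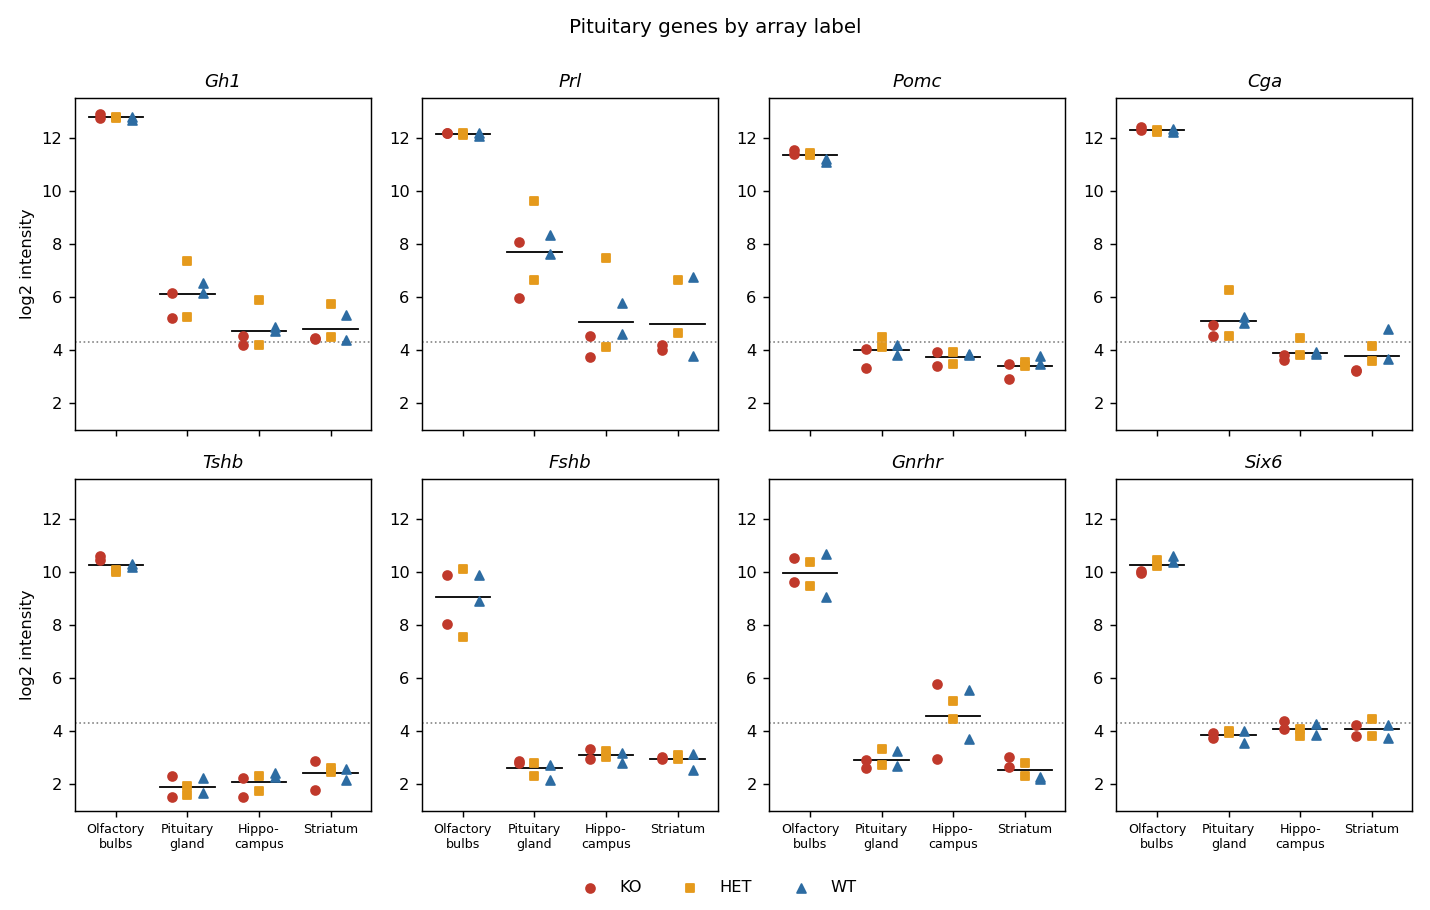
Log2 intensity (vertical axis) of 6 hormone genes, the receptor *Gnrhr* and the transcription factor *Six6* on each of the 24 arrays, grouped by label along the horizontal axis with KO, HET and WT side by side. Horizontal bars are means of 6 arrays and the dotted line marks an intensity of 20. The arrays labelled olfactory bulbs lie above all others in every panel, and *Fshb* and *Gnrhr* spread the most among them.

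The stretches just upstream of the hormone genes are shown because the hormone list had the highest median difference of the lists. Of the 7 hormone genes, 5 were matched in the RefSeq promoter table of the rat assembly GRCr8. The last 60 bases before the start given there were searched on both strands for TATAAA, which the other strand spells as TTTATA, the core of the TATA box that positions the start of transcription, and for TATNCAT, which the other strand spells as ATGNATA, a core of the sites of the POU family, to which the pituitary factor POU1F1 belongs. Capitals mark the matches.
Prl, 17:38298218-38298277, minus strand: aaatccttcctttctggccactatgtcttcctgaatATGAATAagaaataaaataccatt
Pomc, 6:32659293-32659352, plus strand: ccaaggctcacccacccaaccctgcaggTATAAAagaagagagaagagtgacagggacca
Cga, 5:54283280-54283339, plus strand: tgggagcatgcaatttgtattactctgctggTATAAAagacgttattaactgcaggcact
Tshb, 2:192918055-192918114, minus strand: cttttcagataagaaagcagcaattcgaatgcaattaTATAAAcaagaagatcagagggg
Lhb, 1:105037397-105037456, plus strand: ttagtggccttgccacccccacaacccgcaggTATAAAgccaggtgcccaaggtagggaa
TATAAA stood in 4 of these 5 stretches, beginning 32 bases before the start in *Pomc*, 29 in *Cga*, 23 in *Tshb* and 28 in *Lhb*, and in 3.88% of all 27457 promoter stretches of that length. TATNCAT stood in *Prl* alone, 24 bases before the start, and in 1.69% of all. Among the 20 genes with the largest positive differences 17 were matched and 4 held TATAAA, while of the 20 with the largest negative differences 15 were matched and 0 did. Those 4 were *Tshb*, *Cga* and *Pomc*, already counted among the hormone genes, and *Gnas*, with TTTATA beginning 45 bases before the start. These matches describe letters and were not tested for use.

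Receptors through which the hypothalamus acts on the gland were higher in part. Of the 10 genes listed, 7 were measured. Of these 5 rose, beside 45.3% of all genes, and 2 did not pass the test, with a median of 1.92. *Gnrhr*, by which gonadotropes sense gonadotropin-releasing hormone, had 9.06, 9.99 and 10.68 on the 6 arrays, against 2.21, 2.94 and 5.76 on the 18 (difference 6.61, SE 0.48, adjusted p = 3.14e-11). *Trhr*, the receptor for thyrotropin-releasing hormone, had 7.87, 8.09 and 8.43 against 2.66, 3.38 and 4.82 (difference 4.61). Neither receptor overlapped between the arrays compared.

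*Drd2* is the dopamine receptor by which the hypothalamus restrains lactotropes, and it is also made by striatal neurons. It had 10.34 to 11.003 on the arrays labelled olfactory bulbs, against 5.99 to 6.28 on pituitary gland, 4.88 to 5.49 on hippocampus and 10.72 to 11.30 on striatum. It differed by 4.62 from the arrays labelled pituitary gland and by 5.71 from hippocampus, whereas it was 0.28 lower than on striatum, where the arrays overlapped. The ghrelin receptor *Ghsr* had a difference of 1.92 and overlapped with the 18 arrays, and the somatostatin receptor *Sstr5* one of 0.78. Of the other somatostatin receptors, *Sstr2* had a difference of 0.11 and *Sstr3* one of 0.40 against the 18 arrays, and neither passed the test. By label, *Sstr2* was 1.96 higher than on pituitary gland (adjusted p = 7.21e-07 from limma) and differed by -1.20 from hippocampus (adjusted p = 0.000259), and *Sstr3* was 1.46 higher than on striatum (adjusted p = 2.7e-05).

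Transcription factors of the pituitary were higher too. The list held 20 genes and 9 were measured above the floor. All 9 rose, beside 45.3% of all genes, each also against every one of the 3 labels, beside 33.8%. Their median was 3.26. Factors at background on the 18 arrays entered this count only by reaching the floor on the 6. *Six6*, a homeobox factor of eye and pituitary development, had 9.97, 10.30 and 10.59 on the 6 arrays against 3.56, 3.97 and 4.46 (difference 6.27, SE 0.12, adjusted p = 1.74e-21). *Neurod4* had a difference of 6.26 (SE 0.20), *Pitx1*, which acts from the earliest stage of the gland, 4.70 (SE 0.13), and *Tbx19*, the corticotrope factor, 4.70 (SE 0.30). *Gata2*, of thyrotropes and gonadotropes, differed by 2.54, *Foxl2*, of gonadotropes, by 2.62, and *Isl1* by 3.26. The values of *Isl1* and *Msx1* overlapped between the arrays compared. Those of the other 7 factors did not, beside 22.3% of all genes that lay above all 18 arrays.

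Both posterior lobe hormone genes were also higher. *Oxt*, the oxytocin precursor, had 6.93, 7.50 and 8.37 on the 6 arrays against 2.95, 4.42 and 5.002 (difference 3.48, SE 0.28, adjusted p = 1.98e-10). *Avp*, the vasopressin precursor, had 6.70, 7.36 and 9.56 against 3.87, 4.53 and 6.50 (difference 3.17, SE 0.34). Both precursors are made in hypothalamic neurons whose axons end in the posterior lobe. *Rax*, a homeobox factor that pituicytes keep, rose by 1.31 and *Nkx2-1*, of hypothalamic and posterior lobe origin, by 1.11, with overlapping arrays and a difference of 0.28 from striatum that did not pass (adjusted p = 0.152). *Col25a1*, another gene listed for pituicytes, fell by 1.24, also with overlapping arrays. In all, 4 of the 5 listed genes rose and 1 fell, beside 45.3% and 24.7% of all genes.

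Epithelial genes rose together. Of 20 genes listed, 15 were measured above the floor. All 15 rose against each of the 3 labels, beside 33.8% of all genes. Of these, 12 lay above all 18 arrays without overlap, beside 22.3%. Their median was 3.82. Genes at background on the 18 arrays entered this count, too, only by reaching the floor on the 6. *Epcam*, an adhesion molecule of epithelia, had 9.47, 9.77 and 9.86 on the 6 arrays against 2.46, 3.14 and 6.003 (difference 6.39, SE 0.30, adjusted p = 1.53e-14). The tight junction claudins *Cldn4*, *Cldn3*, *Cldn9* and *Cldn7* differed by 5.05, 4.05, 3.98 and 3.20, and the keratins *Krt8*, *Krt7* and *Krt19* by 3.43, 3.09 and 1.23. *Cdh1*, the epithelial cadherin, differed by 2.73, with 6.20 to 7.72 on the 6 arrays against 3.05 to 6.52, so its ranges overlapped. Genes of pituitary stem and folliculostellate cells did not move together. *Anxa1*, *Krt8* and *Cdh1* rose, *S100b* fell by 2.75 and *Sox2* by 0.69, and *Aldh1a2* and *Aldh1a3* did not pass the test. The median was 0.61 over 7 measured genes, of which 3 rose and 2 fell, beside 45.3% and 24.7% of all genes. *S100b* and *Sox2* are made by astrocytes and neural progenitors as well.

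The machinery that makes and stores secreted proteins rose broadly. All 20 measured genes of protein entry, folding and export at the endoplasmic reticulum rose, beside 45.3% of all genes. Of these, 19 rose without overlap, beside 22.3%, and the median was 1.59. *Dnajb11*, the lowest of them at 0.45, did not pass the test after centring or repeated quantile normalization. The translocon subunit *Sec61b* had 9.55, 9.74 and 10.12 on the 6 arrays against 6.01, 6.66 and 7.42 (difference 3.09, SE 0.18, adjusted p = 5.76e-13). *Kdelr3*, which returns chaperones to the endoplasmic reticulum, differed by 3.36, *Creb3l2*, a transcription factor of secretory load, by 2.62, and *Xbp1*, a driver of the unfolded protein response, by 1.20.

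Granule genes, many of which neurons use too, were mixed. Of 16 measured genes 12 rose, beside 45.3% of all genes, 2 fell, beside 24.7%, and 2 did not pass. Their median was 1.01. *Rab27a*, a small GTPase of granule docking, had 9.27, 9.92 and 10.08 against 4.45, 5.35 and 6.01 (difference 4.55, SE 0.21, adjusted p = 1.22e-14). *Resp18*, an endocrine granule protein, differed by 3.36, the granins *Chgb* and *Scg2* by 2.24 and 1.98, and *Pam*, which amidates peptides, by 1.47. *Cpe* and *Pcsk1n* rose by 0.36 and 0.44 and did not pass after centring each array on its median. The calcium sensor *Scgn* fell by 3.17 and *Cadps*, a priming factor of granules, by 0.86, both with overlap, while the convertase *Pcsk2* had a difference of -0.41 and *Vgf* one of -0.52 and neither passed.

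Local regulators of the gonadotropes split. *Bambi*, a pseudoreceptor that dampens TGF-beta type signals, rose by 2.88 (SE 0.25) and the activin subunit *Inhbb* by 1.04, while *Inhba* fell by 2.30, follistatin (*Fst*) by 1.04 and the receptor *Acvr1b* by 0.83. *Inha* and *Acvr2a* had differences of -0.17 and -0.04. Of these 7 genes 2 rose and 3 fell, beside 45.3% and 24.7% of all genes. Of the receptors for steroid and thyroid hormone 9 were listed and 2 measured above the floor, *Nr3c1* at -0.02 and *Rxrg* at -0.31, and neither passed the test.

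**Figure D3:**
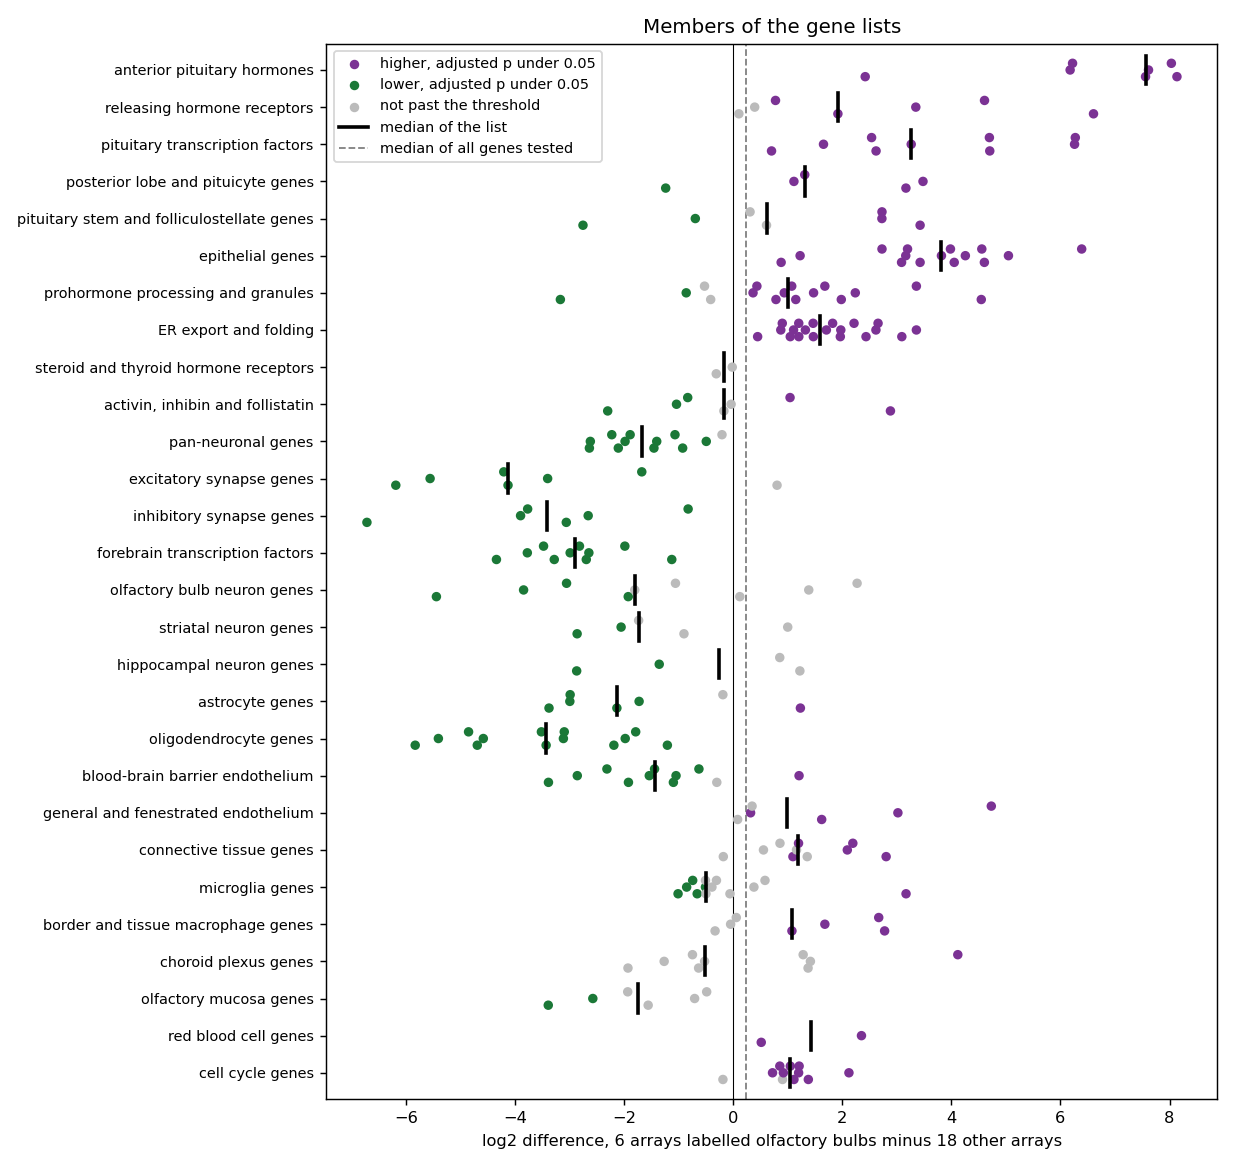
Log2 difference between the 6 arrays labelled olfactory bulbs and the 18 others (horizontal axis) for each measured member of 28 gene lists (rows), coloured by the limma call, with a bar at the list's median and a dashed line at 0.24, the median of all genes tested. Hormone, pituitary factor, epithelial and export genes lie to the right, and synapse, forebrain factor and oligodendrocyte genes to the left.

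Neuronal genes were lower on the 6 arrays. Of 12 measured pan-neuronal genes 0 rose and 11 fell, beside 45.3% and 24.7% of all genes. For 9 of them the arrays did not overlap, beside 10.9% of all genes below all 18. The list's median was -1.67. *Syn1*, which ties synaptic vesicles to the cytoskeleton, had 7.72, 7.89 and 8.21 on the arrays labelled olfactory bulbs against 9.99, 10.53 and 11.24 on the others (difference -2.62, SE 0.15, adjusted p = 5.18e-13). The fusion sensor *Syt1* fell by 1.98, the neurofilament genes *Nefm*, *Nefh* and *Nefl* by 1.89, 1.45 and 1.40, and *Eno2* by 1.07. *Tubb3*, a tubulin of neurons, had a difference of -0.20 and did not pass the test. These genes stayed well above the floor on the 6 arrays, with *Syn1*, *Syt1* and *Eno2* at 7.72 or more on each.

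Genes of synapses between forebrain neurons fell further. Of 7 measured excitatory genes 6 fell, with a median of -4.13, and of 6 inhibitory genes 6 fell, with a median of -3.41. Of all genes 24.7% fell. *Grin2b*, an NMDA receptor subunit, had 3.51, 3.93 and 4.27 on the 6 arrays against 9.54, 10.21 and 10.54 (difference -6.18, SE 0.15, adjusted p = 8.04e-20), and its second probe set differed by -2.08. *Gad2*, a GABA-making enzyme, had 2.91, 3.14 and 3.46 against 8.61, 10.22 and 10.54 (difference -6.71, SE 0.30, adjusted p = 6.46e-15). All 6 arrays lay below an intensity of 20 for both genes, so background limits these differences. The exception among the excitatory genes was the vesicular glutamate transporter *Slc17a6*, which had 6.31, 6.65 and 7.40 against 3.30, 5.78 and 8.21 and a difference of 0.80 that did not pass the test (adjusted p = 0.292).

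The same held for factors of forebrain identity. Of 10 measured transcription factors 10 fell, beside 24.7% of all genes, each also against every one of the 3 labels, beside 17%. Their median was -2.90. *Zic1* differed by -4.34, the interneuron factors *Dlx1*, *Dlx5* and *Dlx6* by -3.77, -3.48 and -3.28, *Emx2* by -2.82 and *Lhx2* by -1.99. The lowest value of each of these 6 genes on the 18 arrays was above the highest on the 6.

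Genes of olfactory bulb neurons, which the label would place on these arrays, were not high as a group. Of 9 measured, 0 rose against the 18 arrays, 4 fell and 5 did not pass, beside 45.3% higher and 24.7% lower over all genes. Their median was -1.80 against all 18 and -4.68 against the arrays labelled pituitary gland. *Th*, by which periglomerular neurons make dopamine, had 2.71 to 3.94 on the arrays labelled olfactory bulbs, against 9.12 to 10.22 on pituitary gland, 3.61 to 5.28 on hippocampus and 4.08 to 5.06 on striatum. *Reln*, secreted by mitral cells, had 3.93 to 4.32 against 9.29 to 9.75, 6.71 to 7.20 and 7.24 to 7.77 on the same 3 labels. *Cdhr1*, a cadherin of mitral cells and photoreceptors, was an exception, with 8.37 to 9.44 on the 6 arrays, against 10.46 to 10.94 on pituitary gland, 3.19 to 4.83 on hippocampus and 4.18 to 6.41 on striatum. Among 6 olfactory mucosa genes *Gng13* fell by 3.39 and *Adcy3* by 2.57, beside 24.7% of all genes lower, and 4 did not pass. The mean of that list was 2.87 to 3.18 on the 6 arrays against 3.74 to 7.78.

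Glial genes were lower too. Of 13 measured oligodendrocyte genes 13 fell without overlap and against each of the 3 labels, with a median of -3.43. Of all genes 24.7% fell, 10.9% lay below all 18 arrays and 17% were lower than each label. *Olig1*, a factor of the whole lineage, had 3.22, 3.28 and 3.90 on the 6 arrays against 7.70, 8.08 and 8.72 (difference -4.69, SE 0.14, adjusted p = 1.65e-18). *Mag*, a myelin adhesion protein, had 2.75, 3.46 and 3.92 against 8.06, 9.46 and 10.34 (difference -5.83, SE 0.29). Both lay below the floor on each of the 6 arrays, while *Cnp*, another gene of myelin, fell by 1.98 and had 7.67 or more. Of 7 astrocyte genes 5 fell and 1 rose, beside 24.7% and 45.3% of all genes. The bicarbonate transporter *Slc4a4* differed by -3.38, *Acsbg1* by -2.99 and *Gja1* by -2.13, whereas *Dio2*, which turns thyroxine into the active hormone and is also made by the pituitary, rose by 1.23 (6.41 to 7.09 against 5.07 to 5.81).

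**Figure D4:**
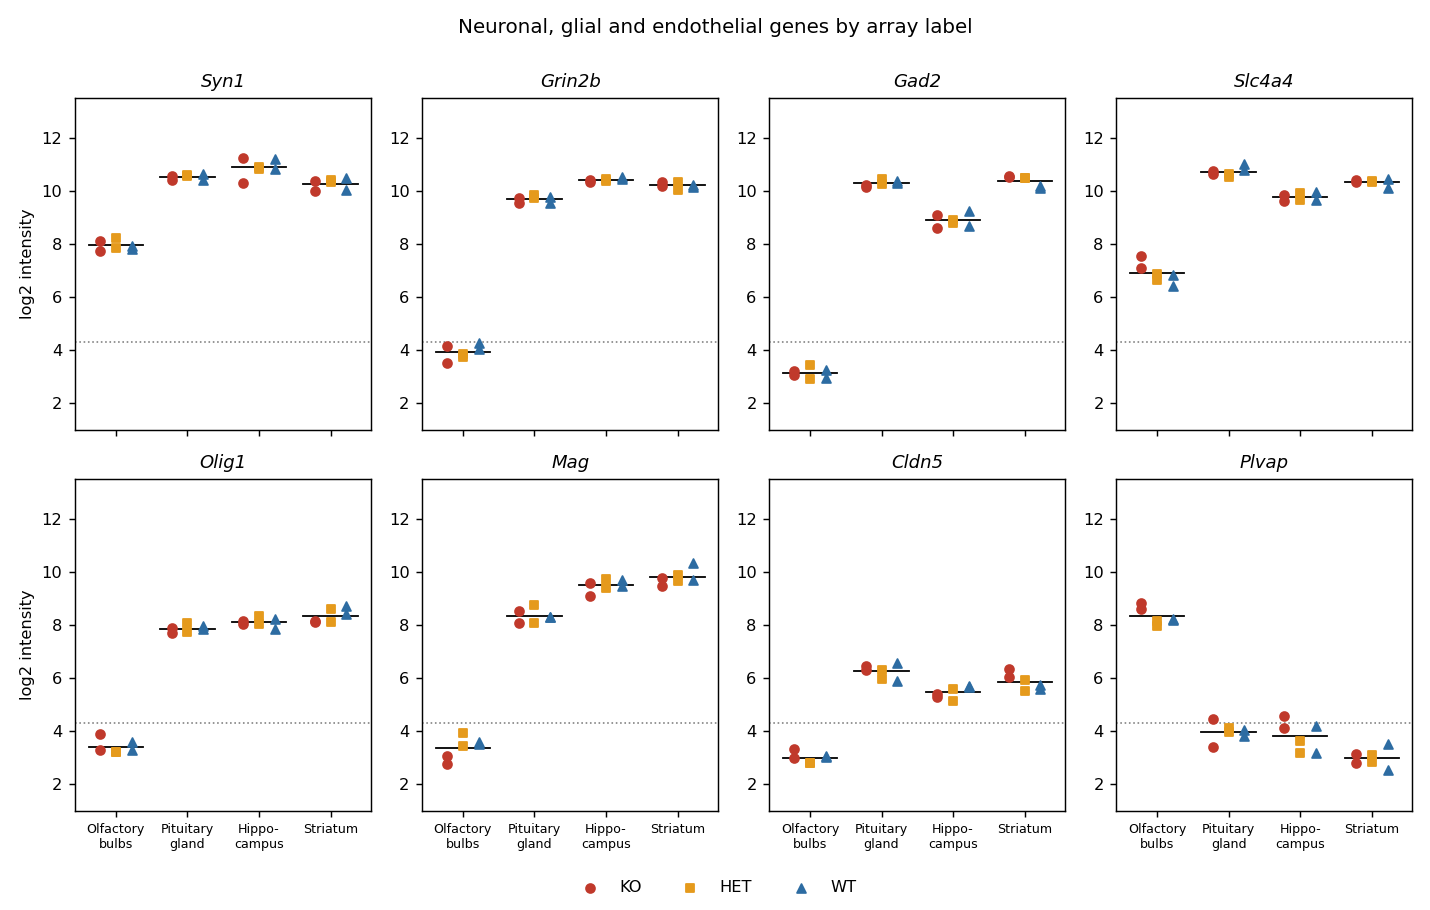
Log2 intensity (vertical axis) of a neuronal (*Syn1*), an excitatory (*Grin2b*), an inhibitory (*Gad2*), an astrocyte (*Slc4a4*), 2 oligodendrocyte (*Olig1*, *Mag*) and 2 endothelial genes (*Cldn5*, *Plvap*) on each of the 24 arrays, by label and genotype. Bars are means of 6 arrays and the dotted line an intensity of 20. *Plvap* lies above the other labels on the arrays labelled olfactory bulbs, and the other 7 genes lie below them.

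Vessel genes differed by type of vessel. Of 11 measured genes of blood-brain barrier endothelium 9 fell, beside 24.7% of all genes, with a median of -1.44. The barrier claudin *Cldn5* had 2.79, 3.01 and 3.33 on the 6 arrays against 5.14, 5.81 and 6.57 (difference -2.86, SE 0.17, adjusted p = 1.43e-12), and the efflux pump *Abcb1a* differed by -3.39. *Ocln*, also a junction gene of epithelia, rose by 1.21 with overlap. *Plvap*, which forms the diaphragms of fenestrated capillaries, had 7.96, 8.21 and 8.83 against 2.52, 3.57 and 4.57 (difference 4.73, SE 0.25, adjusted p = 8.79e-14). *Esm1* differed by 3.02 and *Emcn* by 1.62. Of the genes made by endothelium of any organ, *Cdh5* had a difference of 0.35 and *Egfl7* one of 0.08, and neither passed, while *Tek* rose by 0.32 and did not pass after centring or repeated quantile normalization.

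Genes of other cell types were also measured. Of 10 connective tissue genes 5 rose, a share near the 45.3% of all genes, and 7 did without the 8 arrays carrying a further tissue. The list had a median of 1.18 against all 18 arrays and -0.11 against those labelled pituitary gland, and the list's mean was 7.32 to 7.58 on the 6 arrays and 5.13 to 8.16 on the others. Among those that rose, the proteoglycan *Dcn* had 9.98 to 11.08 against 6.36 to 9.97 and *Mgp*, an inhibitor of calcification, 9.12 to 9.51 against 8.86 at most. In tissue that was not perfused, the haemoglobin gene *Hbb-b1* had 7.44 to 9.65 against 4.65 to 8.11 (difference 2.35) and *Slc4a1* a difference of 0.52 that did not pass after centring. Of 9 choroid plexus genes 8 did not pass, and *Sostdc1* rose by 4.12, with 8.34 to 9.77 against 3.47 to 9.996. Without the 8 arrays, 2 of which had high choroid plexus genes, 4 of the 9 were higher and 1 lower, and the list's median was 0.03, beside -0.52 with them. The part that these cell types have in the other differences was not tested.

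Macrophage genes gave calls in both directions. Of 13 microglia genes 1 rose, 5 fell and 7 did not pass between the 6 arrays and the 18, with a median of -0.50, beside 24.7% of all genes lower. The number that fell was 9 after centring each array on its median and 7 after repeated quantile normalization. Both sides of the comparison hold KO arrays. On these the list's mean was 3.24 to 4.04, below the floor under every label, against 6.52 to 7.81 on HET and WT arrays. With WT arrays only, 1 rose and 5 fell. *P2ry12*, a purine receptor of microglia, fell by 0.85 and *Trem2* by 1.01, and *Olfml3*, an extracellular protein that other cells make too, rose by 3.17 (8.91 to 10.63 against 5.77 to 8.20). Of 7 tissue macrophage genes measured above the floor 4 rose, beside 45.3% of all genes, namely *RT1-Da* and *Cd74*, of antigen presentation by MHC class II, by 2.78 and 2.67, *Lyve1*, also made by lymphatic vessels, by 1.68 and *Ccr2* by 1.08, which did not pass without the 8 arrays. All 4 overlapped between the arrays compared. With WT arrays only, *P2ry12*, *Lyve1* and *Ccr2* did not pass, and 2 of the 7 tissue macrophage genes turned their sign.

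Most cell cycle genes were called higher, and their mean was far higher on 1 array than on any other. The mean over 11 cell cycle genes was 7.03 on HET 2, against 4.20 to 4.92 on the other 5 arrays labelled olfactory bulbs and 3.75 to 4.52 on the 18 others. Of the 11 genes 9 rose in the comparison, beside 45.3% of all genes, with a median of 1.05. Without HET 2, an alternative chosen after its values were seen, 7 rose and 1 fell, with a median of 0.63. The filter still counted HET 2, so genes could enter this refit through that array alone. Apart from HET 2 the list means of the arrays compared overlapped and lay near the floor of 4.32. With WT arrays only, 3 of the 11 rose. *Cdk1*, the kinase that starts mitosis, had 7.18 on HET 2 and 3.95 at the lowest, against 2.05, 2.67 and 3.16 on the 18 arrays, so it was above them on all 6.

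Among the 20 genes with the largest positive differences and no overlap, 10 stood in none of these lists. *Hepacam2*, an adhesion molecule of secretory epithelia, had 10.44, 10.92 and 11.11 on the 6 arrays against 2.03, 2.75 and 4.92 (difference 7.97, SE 0.28, adjusted p = 6.9e-17). *Dlk1*, an imprinted membrane protein of endocrine cells, had 11.47, 11.62 and 11.69 against 3.72, 4.67 and 6.90 (difference 6.54, SE 0.42). *Agtr1b*, the angiotensin receptor of the rat pituitary and adrenal, differed by 6.47, the insulin receptor substrate *Irs4* by 6.30, *Asb4* by 6.62, *Irx6* by 5.96, *Rpl39l1* by 6.18 and *Tmem184a* by 5.90. *Gnas*, the G protein alpha subunit through which many hormone receptors signal, differed by 6.87 on the probe set used (10.38 to 11.11 against 2.83 to 6.33) and by 2.43 on its other probe set, so its size depends on the part of this complex locus that is probed.

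*Klk1b3* completes the positive end, a kallikrein type serine protease, with 8.73, 11.59 and 12.19 on the 6 arrays against 2.79, 3.68 and 4.73 (difference 7.27, SE 0.37, adjusted p = 4.36e-14). At the negative end were the channel and receptor genes *Gabra5* (-6.97), *Kcna1* (-6.82), *Gria3* (-5.56), *Kcnj10* (-5.40), *Grm3* (-5.38) and *Cacna1e* (-5.25), the dendritic gene *Ddn* (-6.71), *Cpne6* (-6.05), the synaptic adhesion and modulator genes *Elfn2* (-5.64), *Neto1* (-5.62) and *Lrfn5* (-5.49), and the myelin genes *Opalin* (-5.40) and *Cmtm5* (-5.19). *Synpr* (-5.44), *Ano3* (-5.32), *Cend1* (-5.22) and *Lamp5* (-5.18) made up the rest with *Gad2*, *Grin2b* and *Mag*. *Gabra5* had 2.48, 2.97 and 3.29 on the 6 arrays against 7.75, 10.08 and 11.22 on the others. Of the 20 positive genes 6 lay below the floor on all 18 arrays, and of the 20 negative ones 12 lay below it on all 6.

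Whether the contrast depends on the mutation was asked with an interaction, the difference between the 6 arrays and the 18 in KO minus that in WT rats. It passed for 10 genes (0.0938% of those tested), 3 upwards (0.0281%) and 7 downwards (0.0656%). The interaction for *Klk1b3* was -3.05 (SE 0.54, adjusted p = 0.0178 from limma). It stood at 8.73 and 9.06 on the KO arrays labelled olfactory bulbs, 11.98 and 11.61 on HET and 12.19 and 11.57 on WT, while the 18 other arrays lay at 4.73 or less. *Klk1c9*, another kallikrein, had 2.57 and 1.95 on KO, 6.19 and 6.42 on HET and 7.37 and 5.10 on WT, against 2.82 at most elsewhere (interaction -3.72, SE 0.52, adjusted p = 0.0064). The KO arrays were below the 4 HET and WT arrays for both genes, and kallikreins are near-identical neighbours whose probe sets may share signal.

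The other 5 genes with a negative interaction were *Stmn4* (-2.79), *Galnt5* (-2.33), *Casq1* (-2.06), *Evi2a* (-1.85) and *Rgn* (-1.43). *Casq1*, *Galnt5* and *Rgn* lay below the floor on the KO and WT arrays of the other labels, at 3.76, 3.29 and 3.39 at most. Their interaction restates lower KO values on the arrays labelled olfactory bulbs. *Stmn4* and *Evi2a* were lower there than elsewhere in both genotypes, with differences of -3.64 and -4.33 in KO and -0.85 and -2.48 in WT. Among genes with a positive interaction, *Nckap1l*, of the blood-cell WAVE complex, had 7.34 and 7.20 on KO arrays labelled olfactory bulbs and 7.57 and 7.57 on WT. On the other arrays it had 3.58 to 4.57 in KO and 6.09 to 7.21 in WT rats (interaction 2.39, SE 0.38, adjusted p = 0.0108 from limma). *Ptgs1*, a cyclooxygenase, had 7.53 and 7.45 on KO arrays labelled olfactory bulbs and 6.75 and 7.16 on WT, against 3.97 to 5.61 in KO and 6.30 to 7.03 in WT rats on the others (interaction 2.51). *Selplg* had an interaction of 2.28. On the KO arrays labelled olfactory bulbs neither *Nckap1l* nor *Ptgs1* reached the low values that KO rats had under the other 3 labels. These genes were chosen after their values were seen, except *Klk1b3* and *Selplg*, and without the 8 arrays carrying a further tissue only 2 genes passed, of which *Ptgs1* was 1. The count was 2 without KO 1, 1 without KO 2, 5 without WT 1 and 18 without WT 2 of the arrays labelled olfactory bulbs.

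The genotypes were compared within the 6 arrays. In a fit of all 12 groups, KO differed from WT for 193 genes (1.81%), 81 upwards (0.76%) and 112 downwards (1.05%), and HET from WT for 0 genes, with 421 at an unadjusted p under 0.05 and 0 also with a trend and robust variance. None of the 7 hormones, 7 receptors, 9 transcription factors, 5 posterior lobe genes, 15 epithelial genes or 20 export genes passed, and the difference of *Prl* was 0.04 (SE 1.14), of *Gh1* 0.10 (SE 0.60), of *Cga* 0.07, of *Pomc* 0.31, of *Tshb* 0.29, of *Fshb* -0.43 and of *Lhb* -0.96. The values for *Prl*, *Gh1* and *Cga* come from the upper end of the scale, where a difference between genotypes may not show. The glucocorticoid receptor *Nr3c1* rose by 0.59 (SE 0.13, adjusted p = 0.0378 from limma), the astrocyte connexin *Gja1* by 0.86, *Pdgfra*, of oligodendrocyte precursors and connective tissue, by 0.84 and the transporter *Slco1c1* by 0.98. Of 13 microglia genes 12 fell. Among them *C1qb*, a complement chain, had 2.86 and 3.52 in KO against 7.04 and 8.50 in WT rats. *Olfml3* had a difference of -0.61 and did not pass. The spread in this fit is pooled over all labels, so a p that misses the threshold does not show equal levels, and the count for KO was 87 without KO 1, 74 without KO 2, 93 without WT 1, 671 without WT 2 and 109 without the 8 arrays. The count for HET was 108 without HET 1, 2 without HET 2, 8 without WT 1 and 87 without WT 2, and 1 or 2 without HET 1 or HET 2 of striatum or WT 1 or WT 2 of pituitary gland.

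**Figure D5:**
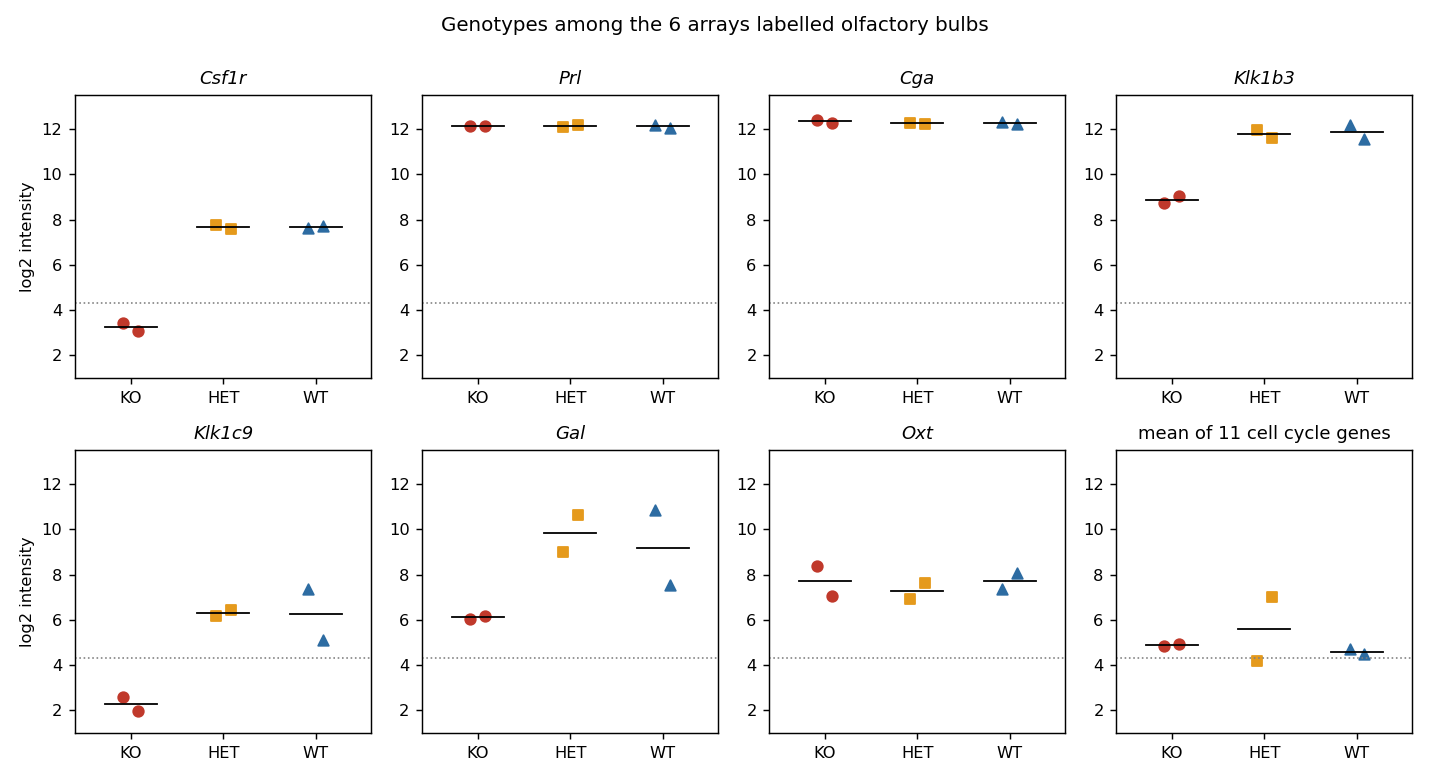
Log2 intensity (vertical axis) on the 6 arrays labelled olfactory bulbs by genotype (horizontal axis) for *Csf1r*, the hormone genes *Prl* and *Cga*, the kallikreins *Klk1b3* and *Klk1c9*, *Gal*, *Oxt* and the mean of 11 cell cycle genes. Each symbol is 1 array, the bars are means of 2 and the dotted line marks an intensity of 20. The KO arrays lie below the others for *Csf1r* and the kallikreins, and the cell cycle mean is high on 1 HET array only.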

How the data were processed

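Rat Gene 2.1 ST arrays (Affymetrix) measured RNA under 4 tissue labels in KO, HET and WT rats. The authors normalized the arrays with RMA, whose version is not given in the sources used here, and deposited linear intensities of 36685 probe sets. Log2 values of these deposited intensities were used. Exact values shared by any pair of the 24 arrays numbered 8 to 132. Of the probe sets, 14824 carried a single symbol in the platform annotation, 829 carried several and 21032 carried none. Where a gene had more than 1 probe set, the brightest on average stood for it, and 10663 genes that reached an intensity of 20 on at least 1 array were tested. Levels were compared across arrays for the same gene only, and the number of arrays limits the precision.

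Linear models came from limma 3.58.1 (R 4.3.3), and p-values were adjusted by the Benjamini-Hochberg method over all genes tested, with a threshold of 0.05. The models held genotype and the contrast of 6 with 18 arrays, genotype and 4 labels, their interaction, or 12 groups. Named were the 20 largest differences in each direction past the threshold without overlap, the markers given for these arrays and members of the gene lists. The members and lists were chosen with earlier results of these data known. The models were tested on simulated data. For the contrast of 6 with 18 arrays these held no differences between the other 3 labels, and so did not check that spread. Figures were drawn with matplotlib 3.10.9, and promoter stretches came from the RefSeq table.

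The comparison was repeated with other intensity filters, with probe sets averaged, with another variance model, with quantile normalization or median centring added, with the replicate number or no genotype as a block, with the methods' t-test, and on subsets of the arrays.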

Additional observations from a re-analysis of the deposited data

Results flagged for a closer look

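Among the 6 arrays labelled olfactory bulbs, 59 genes and 29 list means were searched for a single array far from the other 5, of which chance would flag about 1 in 20. The gap to the nearest array, as a share of the whole range, passed Dixon's critical value for 6 of them. *Kcna1* had 3.79 on WT 2 and 2.94 to 3.25 on the others (share 0.642). *Cpne6* had 4.02 on WT 2 and 3.39 to 3.61 on the others (share 0.648). *Kcnj10* had 2.78 on KO 2 and 3.88 to 4.15 on the others (share 0.802). All 3 lay below an intensity of 20 there. The mean of the granule genes was 9.68 on KO 2 and 9.40 to 9.48 on the others (share 0.712), that of tissue macrophage genes 4.80 on KO 2 and 5.76 to 6.09 on the others (share 0.744), and that of cell cycle genes 7.03 on HET 2 and 4.20 to 4.92 on the others (share 0.743).

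The contrast between the 6 arrays and the 18 differed between KO and WT rats for 10 genes in the interaction test, *Casq1* (-2.06), *Evi2a* (-1.85), *Galnt5* (-2.33), *Klk1b3* (-3.05), *Klk1c9* (-3.72), *Nckap1l* (2.39), *Ptgs1* (2.51), *Rgn* (-1.43), *Selplg* (2.28) and *Stmn4* (-2.79). Of the 24 fits that left out 1 array, *Klk1c9* passed in 23, *Evi2a* and *Selplg* in 6 each, and the other 7 genes in 21 each. *Selplg* is a microglia gene whose KO arrays lay below the floor or near it under the other labels, at 3.44 to 4.84, against 7.97 to 8.61 on WT.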

How the results depend on the processing

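The 40 named genes kept their direction and passed the test in each of 39 alternative settings. They were chosen on the same arrays for large differences without overlap, so the choice largely fixed this outcome and it does not measure robustness. The counts of 4828 higher and 2638 lower genes stayed within 1.5 times in all settings but 1. With WT arrays only, 2671 were higher and 1499 lower, from 8 arrays. Leaving out each array gave 4611 to 4901 higher and 2443 to 2682 lower genes. With the genotype and replicate number as a block the counts were 4740 and 2570, and this block changed no count by over 1.5 times. Whether replicate numbers mark the same rat is not known. Within each genotype the replicate differences of any 2 labels were correlated, and the 18 values were -0.11 to 0.15. As replicate numbers may not mark rats, these values cannot show whether arrays share a rat. The arrays were not treated as paired. The methods' t-test gave 4977 and 2768 genes at an unadjusted p under 0.05 and 4858 and 2642 after adjustment. Of 241 list members 186 were called, of which 7 lost their call after centring and 13 others gained one, 4 lost and 8 gained after quantile normalization, 4 lost and 8 gained without the 8 arrays with a further tissue, and 38 lost and 1 gained with WT arrays only, and none called in both turned its sign. The interaction count of 10 became 2 without the 8 arrays and 1 to 18 when 1 array was left out. KO against WT within the 6 arrays gave 109 genes without the 8 arrays and 74 to 671 when 1 was left out, and HET against WT 1 with no intensity filter and 0 to 108 when 1 was left out. A fit that keeps 1 array of a group assumes that it varies like the other groups. The causes of these changes were not tested.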

Other observations

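Some genes outside the lists varied widely among the 6 arrays labelled olfactory bulbs and were chosen after their values were seen. Galanin, *Gal*, a peptide of lactotropes, had 6.04 and 6.17 on the KO arrays, 9.002 and 10.66 on HET and 10.84 and 7.55 on WT, and KO differed from WT by -3.09 (SE 0.73, adjusted p = 0.0429 from limma). The liver genes *Alb* and *Cyp2c12* were highest on WT 2, at 10.41 and 6.55, against 4.97 to 8.70 and 1.79 to 3.45 on the other 5 arrays. *Mzb1*, of plasma cells, had 7.67 on HET 2 and 7.51 on WT 1, against 3.47 to 3.74 on the other 4. *S100g*, a calcium-binding protein, had 5.36 and 6.44 on KO, 8.09 and 9.77 on HET and 8.12 and 5.99 on WT, and no genotype difference passed the test. Over the 9565 genes that reached an intensity of 20 on any of the 6 arrays, the SD among them had a median of 0.214, and 158 genes had an SD above 1.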
